A study of Homo sapiens with 10 samples.

Results

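Transcripts of 9 enzymes of the tricarboxylic acid cycle were measured in HEK293T, an immortalized line of human embryonic kidney origin that carries the SV40 large T antigen, after 24 h in media that differed in cysteine. The genes are CS, IDH3A, IDH3B, IDH3G, OGDH, DLST, SUCLA2, FH and MDH2, taken by name from the deposited table of normalized counts, in which they are 9 of 78894 Ensembl gene IDs. There were 2 libraries of cells moved to cysteine-free media (0X), 4 of cells kept in complete media with the usual cysteine (1X), and 4 of cells given a 10-fold excess of cysteine (10X). All wells were plated with cysteine present and received their assigned medium on the following day, and the cells carried no other treatment or genetic change. The methods also describe a starvation protocol whose cysteine-free medium had dialyzed serum and added glucose. They do not say clearly which protocol the RNA samples followed, so serum and glucose may also have differed between media. The samples are titled as biological replicates, and the methods describe replicate wells of independent replicates without saying how the wells relate to separate cultures, so p-values measure the spread between these samples. The replicate number given for the sequencing is not the number of libraries per group here, and all libraries with a medium in their title were used.

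The cycle runs in the mitochondrial matrix and oxidizes the acetyl group of acetyl-CoA to carbon dioxide, passing electrons to NAD+ and FAD for the respiratory chain. Citrate synthase (CS) joins acetyl-CoA to oxaloacetate, NAD-dependent isocitrate dehydrogenase (IDH3A, IDH3B and IDH3G) and the 2-oxoglutarate dehydrogenase complex (OGDH and DLST among its subunits) release carbon dioxide, and succinyl-CoA synthetase (SUCLA2 as one of its beta subunits), fumarase (FH) and malate dehydrogenase (MDH2) lie on the way back to oxaloacetate. Each of the 9 proteins is encoded in the nucleus and imported into mitochondria, and in proliferating cells the cycle also supplies carbon for lipid, amino acid and nucleotide synthesis.

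The members lie on 8 chromosomes of GRCh38, and no 2 of the isocitrate dehydrogenase genes share one. The coordinates, from GENCODE 44, are chromosome 12, 56271699 to 56300391, minus strand, for CS (ENSG00000062485, 11 exons in the representative transcript). IDH3A (ENSG00000166411) lies on chromosome 15, 78131498 to 78171945, plus strand, with 11 exons. IDH3B (ENSG00000101365) lies on chromosome 20, 2658395 to 2664219, minus strand, with 12 exons. The gene for the third subunit, IDH3G (ENSG00000067829), is on chromosome X, 153785766 to 153794512, minus strand, with 13 exons. Chromosome 7 holds both OGDH (ENSG00000105953, 44606572 to 44709066, plus strand, 23 exons) and MDH2 (ENSG00000146701, 76048051 to 76067508, plus strand, 9 exons). DLST (ENSG00000119689) occupies chromosome 14, 74881891 to 74903743, plus strand, with 15 exons. SUCLA2 (ENSG00000136143) occupies chromosome 13, 47745736 to 48037968, minus strand, with 11 exons, and FH (ENSG00000091483) chromosome 1, 241497511 to 241519799, minus strand, with 10 exons.

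The promoters of the isocitrate dehydrogenase genes are shown because the 3 subunits of this one enzyme moved by unequal amounts, and they are the members whose RefSeq promoter held TGCGCA, the half-site of NRF1, a factor known for driving nuclear genes of mitochondrial proteins. Promoters ran from 250 bases before to 50 bases after the RefSeq start (GRCh38.p14) and were found for 8 of the 9 members, all but OGDH. TGCGCA, which reads the same on both strands, was present in 3 of these 8 and in 8.24% of all 35116 promoters of that length. Each window below reads 5′ to 3′ on the strand of its gene, with the half-site in capitals, at chr15:78149345-78149374 (plus strand), chr20:2664342-2664371 (minus strand) and chrX:153794415-153794444 (minus strand).
IDH3A: ggggtgggcgctTGCGCActgccgctgcgg
IDH3B: agacaaagtgctTGCGCAtcccatgacctc
IDH3G: cgaccgcgcgcgTGCGCAgtaccgggtccg
In IDH3A the half-site began 5 bases before the start and ended on it, in IDH3B it began 143 bases before, and in IDH3G 57 bases before. The ETS core CCGGAAG was present on either strand in the promoters of IDH3B, IDH3G, DLST and MDH2, and in 10.3% of all promoters. A GC box (GGGCGG) was present for CS, IDH3A, DLST, SUCLA2 and FH (45% of all promoters), and CCAAT for CS, IDH3G, SUCLA2 and FH (34.6%). The E-box CACGTG (7.26%) and the YY1 core AAGATGG (5.84%) matched no member. These 6 letter strings were searched on both strands, none of them contains another, and a match describes the letters in this window and no binding.

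Reads on genes, recovered from the normalized counts, numbered 34836014 to 61654861 per library, and between 1533 and 18568 of them fell on a member in a library, so the number of libraries limits precision more than depth does. The share of reads on mitochondrially encoded genes was 5.15 to 5.71% in cysteine-free media, 4.51 to 5.05% in complete media and 0.117 to 0.146% in excess cysteine. Of 6 kidney epithelial markers, KRT18, KRT8, PAX2, LHX1 and EPCAM were present (39 or more normalized counts in every library), while PAX8 was at 0 to 8.7. Of the 7 markers of blood, endothelial and liver cells, CD3E was at 0 in all 10 libraries and the others reached at most 4.4 (PTPRC), 6.5 (CDH5), 13.6 (PECAM1), 14.8 (APOA1), 21.0 (ALB) and 28.0 (CD14). COL1A1 of fibroblasts ran from 605 to 1002, with COL1A2 and DCN at 2.3 or less. Some markers moved with the medium: PAX2 was higher without cysteine (318 against 133 in complete media), KRT18 (3079 against 1912) and KRT8 (1522 against 1122) were higher in excess cysteine, and COL1A1 was lower there (649 against 911), all called in limma. Their part in the results for the cycle genes was not tested.

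Compared per kilobase of exon, the members spanned a wide range in complete media. MDH2, which oxidizes malate to oxaloacetate, had the highest level at 3201 ± 122 normalized counts per kilobase (SD, n = 4), followed by CS at 2045 ± 115, IDH3B at 1740.4 ± 23.3, IDH3G at 1177 ± 21.2 and DLST at 932 ± 45.2. Below these were IDH3A at 659 ± 25.5, OGDH at 618 ± 59.0, FH at 312 ± 31.9 and SUCLA2 at 242 ± 10.3 per kilobase. IDH3A and OGDH were the one pair of neighbours in this order whose libraries overlapped, and the others were separated beyond the spread of their 4 libraries. In excess cysteine DLST, at 959 ± 27.1 per kilobase, stood above IDH3G at 671 ± 27.0, and the order of the other 7 members was kept. Exon length here counts every annotated exon of the gene, and the order changes when only the representative transcript is used, as given in the closing section.

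**Figure D1:**
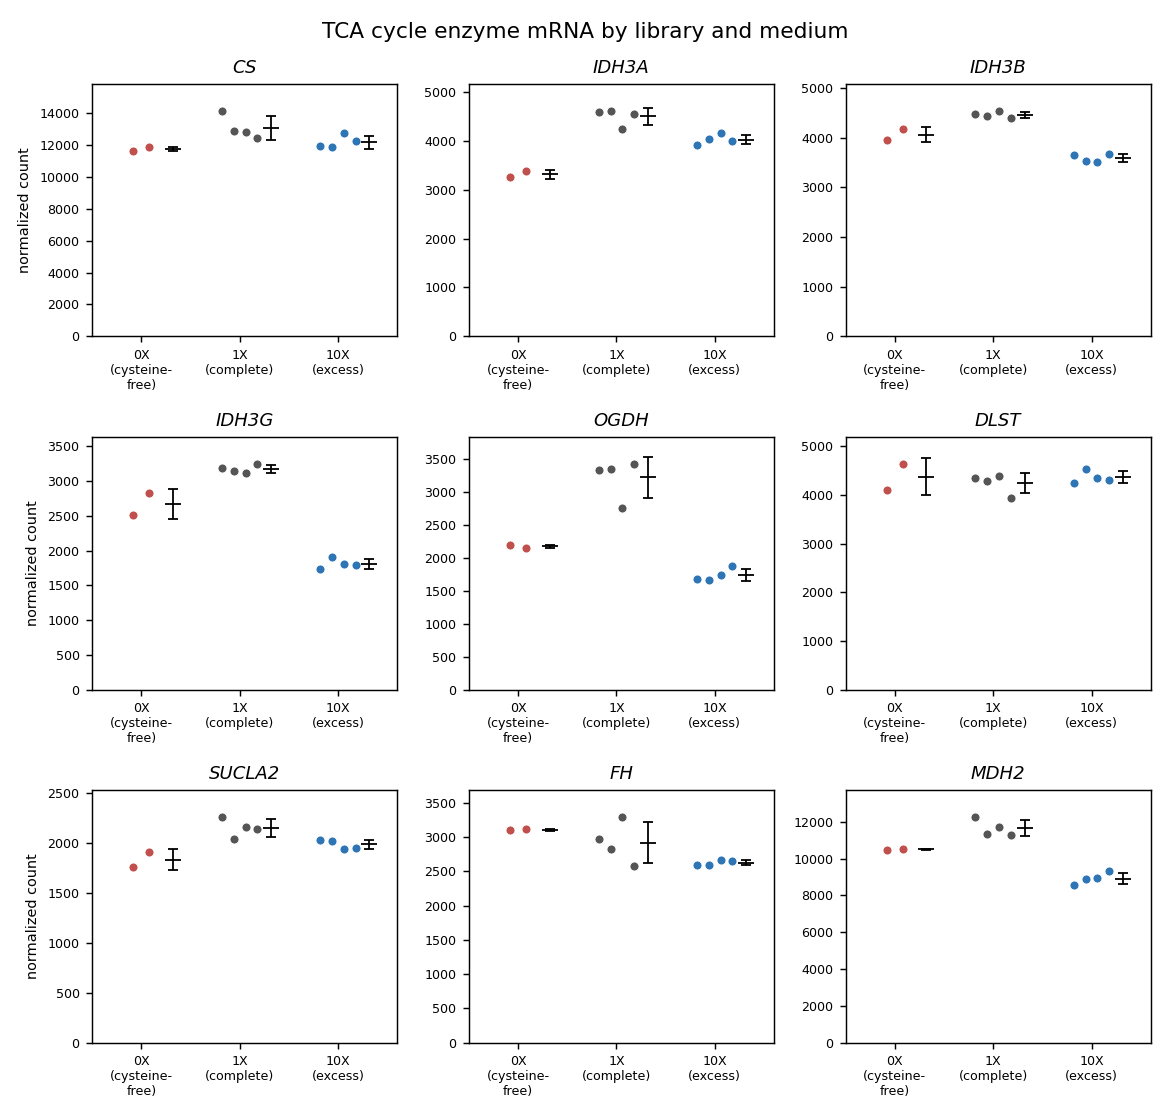
Normalized count of each of the 9 genes in every library, 1 panel per gene, with points for libraries and black marks for the mean ± SD, in cysteine-free (n = 2), complete (n = 4) and excess cysteine media (n = 4). OGDH and IDH3G are lowest in excess cysteine, IDH3A is lowest in cysteine-free media, and the 3 groups of DLST overlap.

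The first comparison was of cysteine-free with complete media, the contrast named in the design of the series. OGDH, IDH3A and IDH3G were lower in cysteine-free media, at 67.7%, 73.6% and 84.0% of their levels in complete media. The other 6 members did not pass the threshold, an adjusted p of 0.01 or less in limma's moderated test on log2 of the normalized count plus 1. The 3 of 9 called stood against 15.9% of the 29045 genes tested, or 24.1% of the 17679 genes with a mean of 100 or more. Lower calls took 8.51% of all genes tested and 13.2% of the genes at that level, and higher calls, of which the members had none, 7.39% and 10.9%. No member changed 2-fold, and 2.10% of genes were called with a change of at least 2-fold. When either cysteine-free library was left out, 1 member, IDH3A, was still called. Libraries of the 2 media did not overlap for 7 members, against 46.9% of all genes. Over the members the median log2 fold change was -0.15, where all genes had 0.00. In bulk RNA, less of a transcript per cell and fewer cells that express it cannot be told apart.

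OGDH encodes the first component of the 2-oxoglutarate dehydrogenase complex, which decarboxylates 2-oxoglutarate. Its normalized counts were 2191 and 2151 in the cysteine-free libraries and 3337, 3354, 2762 and 3425 in the complete libraries. Both cysteine-free values were below all 4 complete values, and complete replicate 3 was the lowest of its group. The log2 fold change was -0.56 (SE 0.081, limma adjusted p = 2.26e-04) and 21.6% of all genes tested changed more. Leaving out complete replicate 3 gave a log2 fold change of -0.63 (limma adjusted p = 2.05e-07). The limma adjusted p rose to 0.0103 when cysteine-free replicate 1 was left out and to 0.0135 when replicate 2 was.

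DLST, the succinyltransferase of the same complex, carries the lipoyl group that takes up the succinyl residue. It had 4107 and 4641 normalized counts without cysteine and 4352, 4284, 4387 and 3938 in complete media, so the groups overlapped. The difference on the log2 scale was 0.04 with a 95% interval of -0.10 to 0.19 (limma adjusted p = 0.668). The ratio of DLST to OGDH counts within a library was 2.02 ± 0.201 (SD, n = 2) in cysteine-free and 1.33 ± 0.185 (SD, n = 4) in complete media. This log2 ratio was higher by 0.61 without cysteine, with no overlap of the groups, and an exact permutation test gave p = 0.067, the smallest that 2 libraries against 4 allow.

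IDH3A is the catalytic subunit of NAD-dependent isocitrate dehydrogenase. Its normalized counts were 3248 and 3374 without cysteine and 4593, 4613, 4242 and 4549 in complete media. The cysteine-free values lay below every complete value. The fold change was -0.44 on the log2 scale (SE 0.0574, limma adjusted p = 1.06e-04). On the other strand IDH3A shares 2608 exon bases, 38.2% of its own, with ACSBG1, an acyl-CoA synthetase gene, which had 1669 ± 70.1 (SD, n = 2) against 2209 ± 83.3 (SD, n = 4) normalized counts and a log2 fold change of -0.40 (limma adjusted p = 5.37e-04). Per the methods, reads overlapping several genes were discarded in counting. The share of IDH3A reads that came from ACSBG1 was not tested. CIB2 shares 38 exon bases with IDH3A.

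IDH3G, a regulatory subunit of the enzyme, had 2517 and 2825 normalized counts without cysteine and 3192, 3143, 3119 and 3248 in complete media. These groups did not overlap. The log2 fold change of -0.25 (SE 0.0623, limma adjusted p = 8.47e-03) was close to the threshold and passed it in 8 of 17 alternative analyses. Without cysteine-free replicate 1 the adjusted p was 0.176. IDH3G shares 267 exon bases with SSR4 on the other strand, whose log2 fold change was -0.28 in limma.

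IDH3B, the other regulatory subunit, had 3957 and 4169 normalized counts without cysteine and 4481, 4436, 4545 and 4408 in complete media. The groups were separate, yet the log2 fold change of -0.14 (SE 0.0533, limma adjusted p = 0.0713) was not called. Within libraries the ratio of IDH3B to IDH3A counts was 1.23 ± 0.012 without cysteine and 0.994 ± 0.052 in complete media. The corresponding ratio of IDH3G to IDH3A was 0.806 ± 0.044 and 0.706 ± 0.023. Both ratios were higher in each cysteine-free library than in any complete library, by 0.30 and 0.19 on the log2 scale, and each had the smallest possible exact permutation p of 0.067. Adjusted over the 6 ratio tests these p-values stayed at 0.067.

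CS, MDH2 and SUCLA2 had log2 fold changes of -0.15 (limma adjusted p = 0.0526), -0.15 (0.0386) and -0.23 (0.0215), none called. CS, the entry enzyme, had 11652 and 11858 normalized counts without cysteine and between 12477 and 14159.98 in complete media. MDH2 had 10496 and 10502 without cysteine and between 11301 and 12262 in complete media. SUCLA2, the ATP-forming beta subunit of succinyl-CoA synthetase, had 1757 and 1905 without cysteine and between 2036 and 2258 in complete media. In each of these 3 genes the cysteine-free libraries were below all complete libraries. FH, which hydrates fumarate, had 3101 and 3121 without cysteine and 2979.9, 2823, 3294 and 2582 in complete media, an overlapping pair of groups with a log2 difference of 0.10 (95% interval -0.08 to 0.27, limma adjusted p = 0.41).

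**Figure D2:**
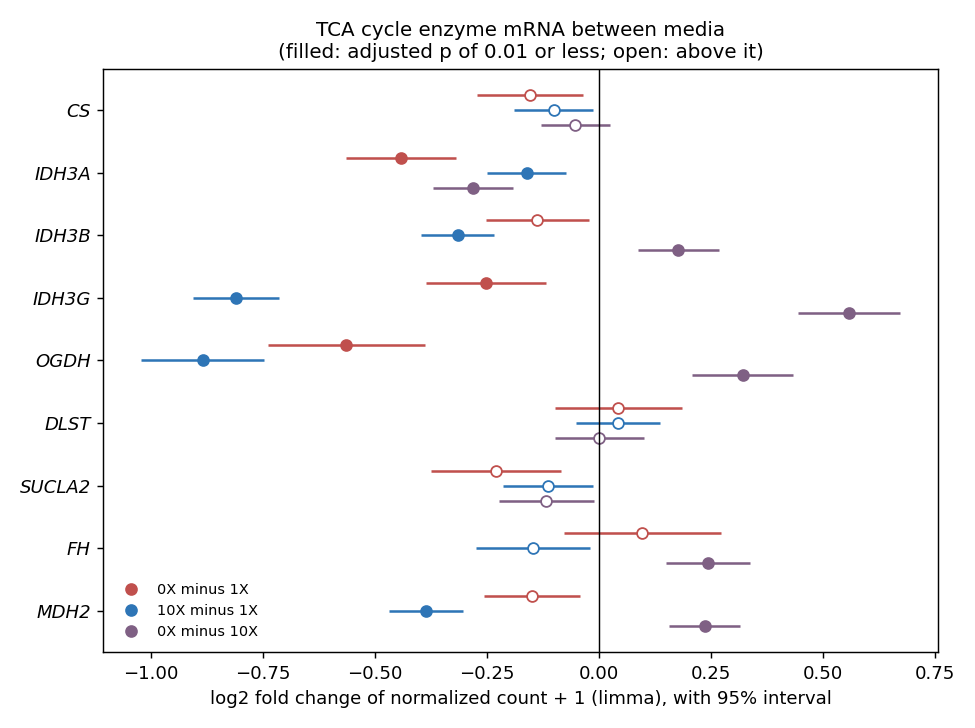
Log2 fold change of each of the 9 genes with its 95% interval, for cysteine-free against complete, excess against complete and cysteine-free against excess cysteine media; filled points passed an adjusted p of 0.01 in limma. OGDH (-0.56 and -0.88) and IDH3G (-0.25 and -0.81) lie below 0 against complete media in both other media, and DLST lies near 0 in each comparison.

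Excess cysteine was compared with complete media in the same way. OGDH, IDH3G, MDH2, IDH3B and IDH3A were lower in excess cysteine, at 54.2%, 57.1%, 76.6%, 80.4% and 89.4% of their levels in complete media, and no member was higher. The 5 of 9 called stood against 46.0% of genes tested, 22.9% of them lower and 23.1% higher, and against 61.9% of the genes with a mean of 100 or more (33.0% lower and 28.9% higher). The members' share called was thus near that of other genes. None of the 9 changed 2-fold, and 10.1% of genes were called with a change of at least 2-fold. The groups did not overlap for 6 members, against 51.6% of genes, and the members' median log2 fold change was -0.16 with 0.01 over all genes. With libraries scaled to equal totals, DLST was called higher (0.15, limma adjusted p = 4.07e-03) and IDH3A was no longer called (-0.06, limma adjusted p = 0.236). The complete libraries are the same as in the first comparison, so the values of the 2 comparisons are not independent.

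In excess cysteine OGDH had 1679, 1666, 1738 and 1875 normalized counts, all below the lowest complete value of 2762. The log2 fold change was -0.88 (SE 0.0645, limma adjusted p = 4.35e-09), and 16.6% of all genes tested changed more. DLST had 4245, 4534, 4361 and 4314 in excess cysteine, within and above the complete libraries, with a log2 difference of 0.04 (95% interval -0.05 to 0.14, limma adjusted p = 0.436). The DLST to OGDH ratio was 2.51 ± 0.172 (SD, n = 4) in excess cysteine against 1.33 ± 0.185 in complete media. No library of the 2 groups overlapped in this ratio, which differed by 0.93 on the log2 scale (exact permutation p = 0.029, the smallest that 4 against 4 allow, and 0.057 adjusted over the 6 ratio tests, so that 0.05 could not be reached).

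All 3 subunits of the NAD-dependent isocitrate dehydrogenase were lower in excess cysteine, by different amounts. IDH3G had 1735, 1910.04, 1808 and 1795 normalized counts, far below the complete range of 3119 to 3248, with a log2 fold change of -0.81 (SE 0.0452, limma adjusted p = 1.54e-10). Its neighbour on the other strand, SSR4, had a log2 fold change of 0.22 in limma. IDH3B had 3659.7, 3537, 3507 and 3665, also below each complete library, at -0.31 (SE 0.0387, limma adjusted p = 2.40e-06). IDH3A had 3915, 4025, 4154 and 3993, just below the lowest complete value of 4242, at -0.16 (SE 0.0418, limma adjusted p = 3.32e-03). ACSBG1, which overlaps IDH3A, stood at -0.15 (limma adjusted p = 0.0109). The IDH3A call was lost in 7 of 19 alternatives. These were the analyses without complete replicate 1 or 2 or excess replicate 1 or 4, and those with another scaling. The scalings were equal totals, equal totals over nuclear genes (-0.12, limma adjusted p = 0.0140) and quantile normalization (-0.11, limma adjusted p = 0.0203).

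The ratio of IDH3G to IDH3A counts was 0.443, 0.474, 0.435 and 0.45 in the excess libraries and 0.695, 0.681, 0.735 and 0.714 in the complete libraries. The difference was -0.65 on the log2 scale, lower in all 4 excess libraries than in any complete library, with an exact permutation p of 0.029 and 0.057 after adjustment. In cysteine-free media the same ratio was higher than in complete media, so it ran from 0.806 without cysteine to 0.451 in excess. IDH3B to IDH3A was 0.894 ± 0.041 in excess cysteine, a log2 difference of -0.15 from complete media (exact permutation p = 0.029, adjusted 0.057). It too was highest without cysteine and lowest in excess, with no overlap of either group with the complete libraries. Such ratios do not depend on the scaling between libraries.

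**Figure D3:**
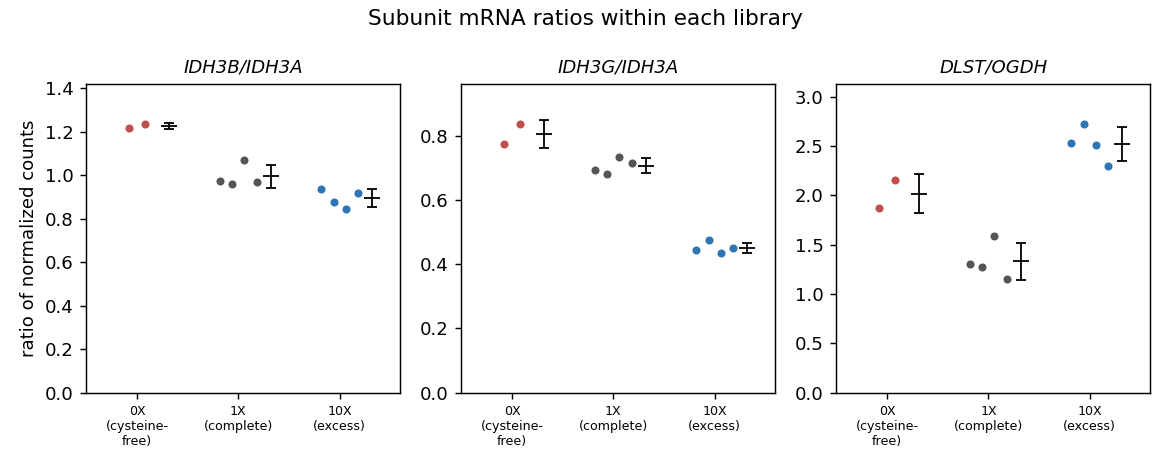
Ratio of normalized counts within each library, on a linear axis, for IDH3B to IDH3A, IDH3G to IDH3A and DLST to OGDH, with points for libraries and black marks for the mean ± SD in the 3 media. Both isocitrate dehydrogenase ratios are highest in cysteine-free media and lowest in excess cysteine, and the DLST to OGDH ratio is lowest in complete media.

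MDH2 had 8552, 8889.6, 8925 and 9316 normalized counts in excess cysteine and 12262, 11351, 11703 and 11301 in complete media. The groups were well apart, with a log2 fold change of -0.39 (SE 0.039, limma adjusted p = 2.41e-07). CS (11862 to 12749 in excess cysteine), FH (2593 to 2669) and SUCLA2 (1943 to 2031) differed by -0.10, -0.15 and -0.11 on the log2 scale, with limma adjusted p of 0.0495, 0.0474 and 0.0512, above the threshold. CS and FH overlapped between the media, while the highest SUCLA2 value in excess cysteine was just under its lowest in complete media. Scaling to equal totals over nuclear genes, which takes the mitochondrial reads out of the scaling, left OGDH, IDH3G, IDH3B and MDH2 called lower, and the same 4 were called in all 19 alternatives that kept the threshold on adjusted p alone.

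Cysteine-free media were then set directly against excess cysteine, the ends of the range. IDH3G, OGDH, FH, MDH2 and IDH3B were higher without cysteine, by 0.56, 0.32, 0.24, 0.24 and 0.18 on the log2 scale, and IDH3A was lower by a log2 fold change of -0.28. The 6 of 9 called stood against 48.0% of genes tested (23.6% higher and 24.4% lower) and 62.7% of those with a mean of 100 or more (32.7% higher and 30.0% lower). None changed 2-fold, and 12.4% of genes were called with a change of at least 2-fold. Groups did not overlap for 8 of the 9, against 66.0% of genes, and the median log2 fold change of the members was 0.18. The same libraries entered the earlier comparisons.

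The IDH3G values of 2517 and 2825 without cysteine were above the 1735 to 1910.04 of the excess libraries (SE 0.0551, limma adjusted p = 3.89e-09). IDH3A went the other way, with 3248 and 3374 below the 3915 to 4154 of excess cysteine (SE 0.0435, limma adjusted p = 5.24e-06). By group means the order of levels across media was, from high to low, complete, excess, cysteine-free for IDH3A, and complete, cysteine-free, excess for IDH3B, IDH3G, OGDH and MDH2. FH, at 3111 ± 14.1 without cysteine and 2628 ± 39.5 in excess, passed here (limma adjusted p = 5.25e-05), with the mean of complete media, 2919.7 ± 299, between them. DLST did not differ beyond its spread, with a log2 difference of 0.00 and a 95% interval of -0.10 to 0.10 (limma adjusted p = 0.984). CS and SUCLA2, at -0.05 and -0.12, were not called (limma adjusted p = 0.24 and 0.0563), but with equal totals both were lower without cysteine, at -0.13 and -0.20 (limma adjusted p = 1.72e-03 and 1.98e-03), and IDH3B was no longer called.

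The other 11 listed subunits of the cycle enzymes gave the surroundings of the members. In cysteine-free against complete media 4 were lower and 2 higher. The lower genes were MRPS36 (-0.49), which tethers the E3 component to the 2-oxoglutarate dehydrogenase complex, and SDHD (-0.44), SDHB (-0.41) and SDHC (-0.40) of succinate dehydrogenase. IDH2, the NADP-dependent mitochondrial isocitrate dehydrogenase, was higher at 0.46, and SUCLG2, the GTP-forming alternative to SUCLA2, at 0.30. With the members, 7 of 20 cycle genes were lower and 2 higher, against 13.2% lower and 10.9% higher among all genes with a mean of 100 or more.

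In excess cysteine 10 of these 11 subunits were lower and SUCLG1 (-0.06) was not called, which with the members made 15 of 20 lower and none higher, against 33.0% lower and 28.9% higher among all genes with a mean of 100 or more. OGDHL, a relative of OGDH, went from 1451 ± 108 to 489 ± 33.0 normalized counts (SD, n = 4 each), a log2 fold change of -1.57, larger than the -0.88 of OGDH. SUCLG2 went from 1793 ± 96.3 to 718 ± 84.1, at -1.32, beside -0.11 for SUCLA2. DLD, the E3 component shared with other dehydrogenases, stood at -0.47. Directly between the ends, 12 of 20 cycle genes were higher without cysteine and 2 (IDH3A and SDHB) were lower, against 32.7% and 30.0% of the genes with a mean of 100 or more.

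**Figure D4:**
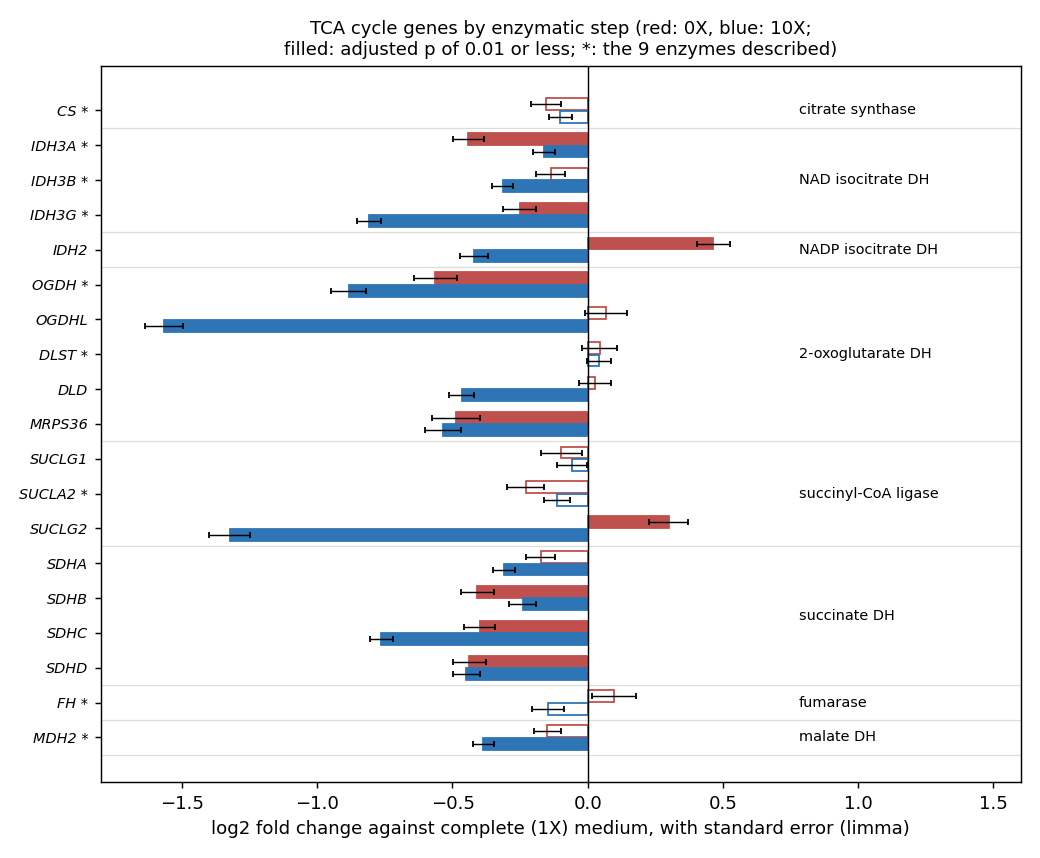
Log2 fold change against complete media of genes for cycle enzymes in the order of the reactions, for cysteine-free (red bars) and excess cysteine media (blue bars), with error bars for the standard error and an asterisk on the 9 genes described here; filled bars passed an adjusted p of 0.01 in limma. In excess cysteine all called genes are below 0, OGDHL (-1.57) and SUCLG2 (-1.32) lowest. In cysteine-free media the called genes above 0 are IDH2 (0.46) and SUCLG2 (0.30).

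Around the cycle, 49 genes in 5 further lists were tested, beside which 7.39% of all genes tested were higher and 8.51% lower without cysteine, and 23.1% and 22.9% in excess. Among genes with a mean of 100 or more these shares were 10.9% and 13.2% without cysteine, and 28.9% and 33.0% in excess. Of 14 genes of pyruvate entry, 1 was higher and 2 lower without cysteine, and 2 and 7 in excess. Among 7 genes of lipoylation, which arms DLST, and of succinate dehydrogenase assembly, 3 were higher without cysteine (LIAS, LIPT2 and SDHAF4) and 1 was higher and 3 lower in excess. The 11 cytosolic counterparts and export genes gave 1 higher and 2 lower without cysteine and 4 and 7 in excess. Glutamine, glutamate and aspartate entry (7 genes) gave 2 and 1, then 3 and 2. The 10 transcriptional regulators gave 0 and 3, then 2 and 6.

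Of the 60 listed genes other than the members, PCK2, the mitochondrial enzyme that draws oxaloacetate off as phosphoenolpyruvate, rose from 1765 ± 181 to 7046 ± 28.8 normalized counts without cysteine (log2 fold change 2.00, limma adjusted p = 3.86e-09). It was also higher in excess cysteine (0.96), as was GPT2, the mitochondrial alanine transaminase that forms 2-oxoglutarate (0.89 without cysteine and 0.84 in excess). SDHAF4, an assembly factor of succinate dehydrogenase, rose by 0.87 without cysteine. ESRRA (-0.72) and PPARGC1B (-0.51), a nuclear receptor and its coactivator in mitochondrial gene expression, and PDP2 (-0.63), a phosphatase that activates pyruvate dehydrogenase, were lower without cysteine. Of 17 alternatives, the PDP2 call was lost in 5, SDHAF4 in 3, ESRRA in 2 and GPT2 in 1, among them the analysis without a filter for the first 3.

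In excess cysteine the malic enzyme ME1 was higher (1.05), and the carriers SLC25A11 (-1.51), which exchanges 2-oxoglutarate and malate, and SLC25A1 (-1.47), which exports citrate, were lower, next to OGDHL. Between the ends, OGDHL (1.63), SUCLG2 (1.62) and the lipoyl transferase LIPT2 (1.46) were highest without cysteine relative to excess. PDP2 (-0.89) and ME1 (-0.83) were lowest. NRF1 itself, whose half-site the 3 isocitrate dehydrogenase promoters hold, was not called against complete media, at -0.01 without cysteine and -0.17 in excess on the log2 scale.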

How the data were processed

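RNA of 10 samples was sequenced after poly(A) selection with a directional kit. Per the labels and the methods, the authors aligned reads with STAR 2.7.10b to GRCh38, counted them on Ensembl genes and divided them by DESeq2 size factors (DESeq 1.42.0, R 4.3.3 in the submitters' processing notes). The deposited values are therefore a signal, here called normalized counts. The methods name featureCounts, with reads that overlap several genes discarded, and the processing notes name HTSeq. The Ensembl release and strand setting are not given in the sources used here. Whether reads over overlapping genes on opposite strands were assigned by strand or discarded is therefore not known. All values (100%) were whole multiples of 1 step per library at a tolerance of 0.01, from which reads were recovered. The medium in each title gave the groups.

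Of 78894 IDs, 61463 were in GENCODE 44 and 42165 had a symbol. Genes with 10 or more in at least 3 libraries were kept (29045, all 9 members among them). Log2 of the value plus 1 was fitted with limma 3.58.1 in R 4.3.3 (lmFit, eBayes with trend), 2-sided, on the groups compared, with Benjamini-Hochberg adjustment over all kept genes and calls at 0.01. The procedure was tested on simulated data. Subunit ratios were compared by exact permutation tests, 2-sided, adjusted over 6. The members and gene lists were chosen with earlier results of these data known. Beyond the members, the text names in each comparison the 3 largest increases and 3 largest decreases over the 60 listed genes that were called, whose libraries did not overlap between the groups and whose larger group mean was 100 or more. A gene that this rule names and a cycle subunit are not reported here. Also named are genes that share exons with a member and, chosen after their values were seen, cycle subunits, LIAS and NRF1. Alternatives were other pseudocounts (0.5 and 10), filters, scalings, thresholds, edgeR 4.0.16, DESeq2 1.42.0 (both on recovered reads), a block for the replicate number, and each library left out. Neither labels nor methods give a batch.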

Additional observations from a re-analysis of the deposited data

Results flagged for a closer look

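In 24 groups of 4 values examined, from complete media and excess cysteine, a library stood apart in 3, where about 1 would by chance. In each of the 3 it was complete replicate 3, set apart from the other complete libraries. Its OGDH value was 2762 normalized counts, with the other 3 between 3337 and 3425. Its IDH3A value was 4242, with the others between 4549 and 4613. Its log2 ratio of IDH3B to IDH3A was 0.10 (0.0997), with the others between -0.06 and -0.04. This ratio is formed from the same IDH3A values, and the 24 groups share genes and libraries. The 3 flags are therefore not independent, and the number set by chance is a rough guide. Without this library the log2 fold change of OGDH was -0.63 in cysteine-free and -0.96 in excess cysteine, and that of IDH3A -0.47 and -0.19, all called in limma (adjusted p = 2.05e-07, 9.45e-13, 3.67e-06 and 4.72e-04). The cause was not tested.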

How the results depend on the processing

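Cysteine-free against complete media rested on 2 libraries and was the least stable comparison. The genes called (4618) became 738 without a filter on low values, 7987 at an adjusted p of 0.05, 609 with a 2-fold minimum and 978 to 6300 when a library was left out (978 without cysteine-free replicate 2, 1198 without replicate 1, 2968 and 2795 without complete replicate 1 and 2). The members called (3) became 0, 5, 0 and 1 to 3. Genes called in excess against complete media (13372) became 2942 with a 2-fold minimum and 11958 to 13691 with a library left out, and the members called (5) became 0 and 4 to 6. Between the ends, the genes called (13954) became 8864 without a filter and 3610 with a 2-fold minimum, and the members called (6) became 4 without a filter, 0 with that minimum, 7 with equal totals and 5 to 6 with a library left out.

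Signs turned in values near 0 that were not called. The log2 fold change of DLST without cysteine ran from -0.045 (without cysteine-free replicate 2) to 0.13 (without replicate 1) with a library left out. Between the ends, that of DLST was -0.080 with equal totals, -0.0013 with equal totals over nuclear genes, -0.0069 with the replicate number as a block, and -0.087 to 0.090 with a library left out. That of CS in excess cysteine was 0.0044 with equal totals and 0.027 with quantile normalization. In excess cysteine, equal totals shifted the median log2 difference over genes averaging 100 or more from -0.02 to 0.08, and the share of calls that were higher from 50.3% to 61.8% (from 49.2% to 40.01% between the ends).

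Replicate numbers did not pair the libraries: deviations of same-numbered libraries correlated between -0.0281 and 0.0392, and 2 of 4 excess libraries correlated best with their own number. With the replicate block, 6532, 13392 and 12393 genes and 3, 5 and 6 members were called. Per kilobase of the representative transcript the levels in complete media were 5371 for MDH2, 4489.6 for CS, 2897 for IDH3B, 2379 for IDH3G, 1630.2 for FH, 1507 for DLST, 1102 for IDH3A, 1017 for SUCLA2 and 768 for OGDH. Beside the cases in the report, IDH3G without cysteine lost its call (adjusted p from limma 0.0113 with equal totals, 0.0153 with equal totals over nuclear genes, 0.0139 with quantile normalization, 0.062 without a filter, 0.0115 to 0.0262 without complete replicate 1, 2 or 4, 0.0201 without cysteine-free replicate 2). So did OGDH and IDH3A without cysteine (limma adjusted p = 0.045 and 0.0126 without a filter). Between the ends the calls lost were IDH3B (limma adjusted p = 0.0503 with equal totals, 0.0159 without a filter, 0.0416 without cysteine-free replicate 2) and OGDH (0.0122 without a filter), and those gained were CS and SUCLA2 (limma adjusted p = 1.72e-03 and 1.98e-03 with equal totals). FH in excess cysteine was called without complete replicate 4 (-0.20, limma adjusted p = 2.70e-03) and SUCLA2 without cysteine in a fit of all 3 groups (limma adjusted p = 5.20e-03).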
